A study of Rattus norvegicus with 18 samples.

Results

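The genes described are 8 genes of bicarbonate and proton transport, measured in kidneys of 2 rat strains. They are Slc4a4, Slc4a1, Slc4a2, Slc26a4, Slc9a3, Slc9a2, Car2 and Car4. Their probe sets, groups of short probes for 1 transcript, were taken wherever the platform annotation gave exactly 1 gene symbol and that symbol was one of these 8. This gave 17 probe sets for the 8 genes, among 26202 probe sets and 10969 named genes in all. The genes were chosen with results of the same strain comparison already known, Slc4a4 among them. Their strain differences are therefore given as a description with standard errors. The test results given for them are counts from the fit over all probe sets, from which nothing is read.

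The congenic rats belong to 1 line in which part of chromosome 9, with a blood pressure quantitative trait locus, comes from the salt-resistant R strain and the remaining genome from Dahl salt-sensitive (S) rats. The Dahl S rats, the recipient strain, become hypertensive when fed much salt. Both groups thus share the Dahl S background. Kidney RNA from 3 congenic and 3 Dahl S samples was measured on array types A, B and C, 18 arrays in all. Arrays of the 3 types with the same strain and number were taken as 1 sample, which the sample titles do not state. The sources used here give no diet, age or sex. No label says that the samples are separate animals, so the errors cover only sample-to-sample spread, which could be technical.

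The kidney recovers filtered bicarbonate and secretes acid. In the proximal tubule, a sodium-proton exchanger in the brush border moves acid into the lumen, carbonic anhydrases in the cell and at its surface interconvert carbon dioxide and bicarbonate, and a sodium bicarbonate cotransporter returns bicarbonate to the blood. In the collecting duct, intercalated cells secrete acid or bicarbonate with proton pumps and chloride-bicarbonate exchangers. Sodium is recovered along with bicarbonate in the proximal tubule, which ties these transporters to salt balance.

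In the GRCr8 assembly table Slc9a2 was the 1 gene of the 8 on chromosome 9, the chromosome of the R segment. Slc4a4 lies on chromosome 14, Slc4a1 and Car4 on chromosome 10, Slc4a2 on 4, Slc26a4 on 6, Slc9a3 on 1 and Car2 on 2. The sources used here give no borders of the R segment. RefSeq promoter sequences were on hand for 6 of the 8 genes. Those of Slc4a4, whose brightest probe set did not overlap between strains, and of Slc9a2, the chromosome 9 gene, are shown as the 250 bases before the annotated start, 5′ to 3′, in GRCr8. Slc4a4 lies at chr14:19468283-19468532 on the minus strand and Slc9a2, at the first of its 2 listed starts, at chr9:50427362-50427611 on the plus strand. Capitals mark GC boxes, the letters GGGCGG on either strand, where matches may overlap.
Slc4a4: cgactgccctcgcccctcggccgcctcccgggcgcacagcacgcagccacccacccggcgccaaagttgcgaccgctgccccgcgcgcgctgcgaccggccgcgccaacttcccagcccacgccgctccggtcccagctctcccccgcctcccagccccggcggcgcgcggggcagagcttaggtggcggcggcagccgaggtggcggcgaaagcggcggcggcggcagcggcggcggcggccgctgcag
Slc9a2: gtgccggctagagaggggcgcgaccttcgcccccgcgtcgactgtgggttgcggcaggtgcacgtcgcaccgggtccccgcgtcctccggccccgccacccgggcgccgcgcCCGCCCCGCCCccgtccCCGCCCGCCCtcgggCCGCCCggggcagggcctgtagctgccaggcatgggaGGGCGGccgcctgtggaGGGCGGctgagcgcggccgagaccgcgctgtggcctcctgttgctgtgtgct

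Both stretches are rich in G and C, at 80.8% for Slc4a4 and 79.6% for Slc9a2, where the median of 33469 promoters was 51.2%. The Slc9a2 stretch held 7 GC box matches and the Slc4a4 stretch held 0, and 30.5% of all promoters held at least 1. The second Slc9a2 start differed: the 250 bases before it, chr9:50458191-50458440, were 48.0% G and C and held 0 GC boxes and 1 CCAAT box. Neither printed stretch held a TATA box (TATAAA, in 12.9% of promoters) or a CCAAT box (CCAAT, in 34% of promoters) on either strand. These are matches of letters in 1 window per start, and no measurement here bears on factors bound there.

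The tissue label was checked against marker genes. The proximal tubule markers Miox (21966 to 27277 signal units over the 6 samples) and Slc34a1 (10806.5 to 16451) and the thick limb protein Umod (5763 to 7456) were bright in all samples. In both strains the samples numbered 1 stood apart: congenic sample 1 correlated best with Dahl S sample 1 over all tested probe sets (r = 0.927, against 0.875 to 0.895 with the other 4 samples). Dahl S sample 3 had the highest red cell marker signal, with sums over 10 tested markers of 9829 to 19224 in the congenic samples, and of 12392, 14991 and 54170 in Dahl S samples 1, 2 and 3. For the tested probe sets of the 8 genes, differences without both samples numbered 1 are given beside the results.

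Slc4a4 encodes the electrogenic sodium bicarbonate cotransporter NBCe1, which carries bicarbonate out of proximal tubule cells to the blood. Its brightest probe set, rc_AA848407_at on array type B, gave signals of 2866, 2529 and 2641 in congenic samples 1, 2 and 3, against 1769, 1930 and 1371 in Dahl S samples 1, 2 and 3. Every congenic sample was above every Dahl S sample, and the lowest congenic value was 2529 against a highest Dahl S value of 1930. The geometric mean was 2675 in the congenic and 1673 in the Dahl S samples, a 1.599-fold ratio (log2 difference 0.68, SE 0.17, n = 3 per strain). The within-strain SD on the log2 scale was 0.09 in the congenic and 0.26 in the Dahl S samples. Between samples of the same number, which were not taken as pairs, the log2 difference was 0.70, 0.39 and 0.95 for numbers 1, 2 and 3. Without both samples numbered 1 it was 0.67. Leaving out each sample in turn gave 0.53 to 0.78, the lowest without Dahl S sample 3. In whole kidney RNA, more proximal tubule cells and more Slc4a4 RNA per cell cannot be told apart.

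The other Slc4a4 probe sets also had higher congenic means, with overlap. AF004017_at on type A read 893.2, 531.7 and 507.2 in congenic samples and 554.3, 368.0 and 418.3 in Dahl S samples. Dahl S sample 1 was above congenic samples 2 and 3, so the strains overlapped (log2 difference 0.50, SE 0.25). By sample number, not taken as pairs, the differences were 0.69, 0.53 and 0.28. Without both samples numbered 1 the difference was 0.40. The dim probe set rc_AI144995_at on type C read 59.6, 108.4 and 55.5 in congenic samples, against 66.5, 23.6 and 54.0 in Dahl S samples. Its difference of 0.69 (SE 0.49; 1.12 without both samples numbered 1) came with overlap, and Dahl S sample 2 lay below the filter level of that array type, 37.7 signal units. By sample number its differences were -0.16, 2.2 and 0.04, so the samples numbered 2 carried most of the 0.69. The 3 probe sets sit on 3 different array types. If arrays of the same strain and number held the same RNA, they repeat the array measurement and not the sampling of rats.

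**Figure D1:**
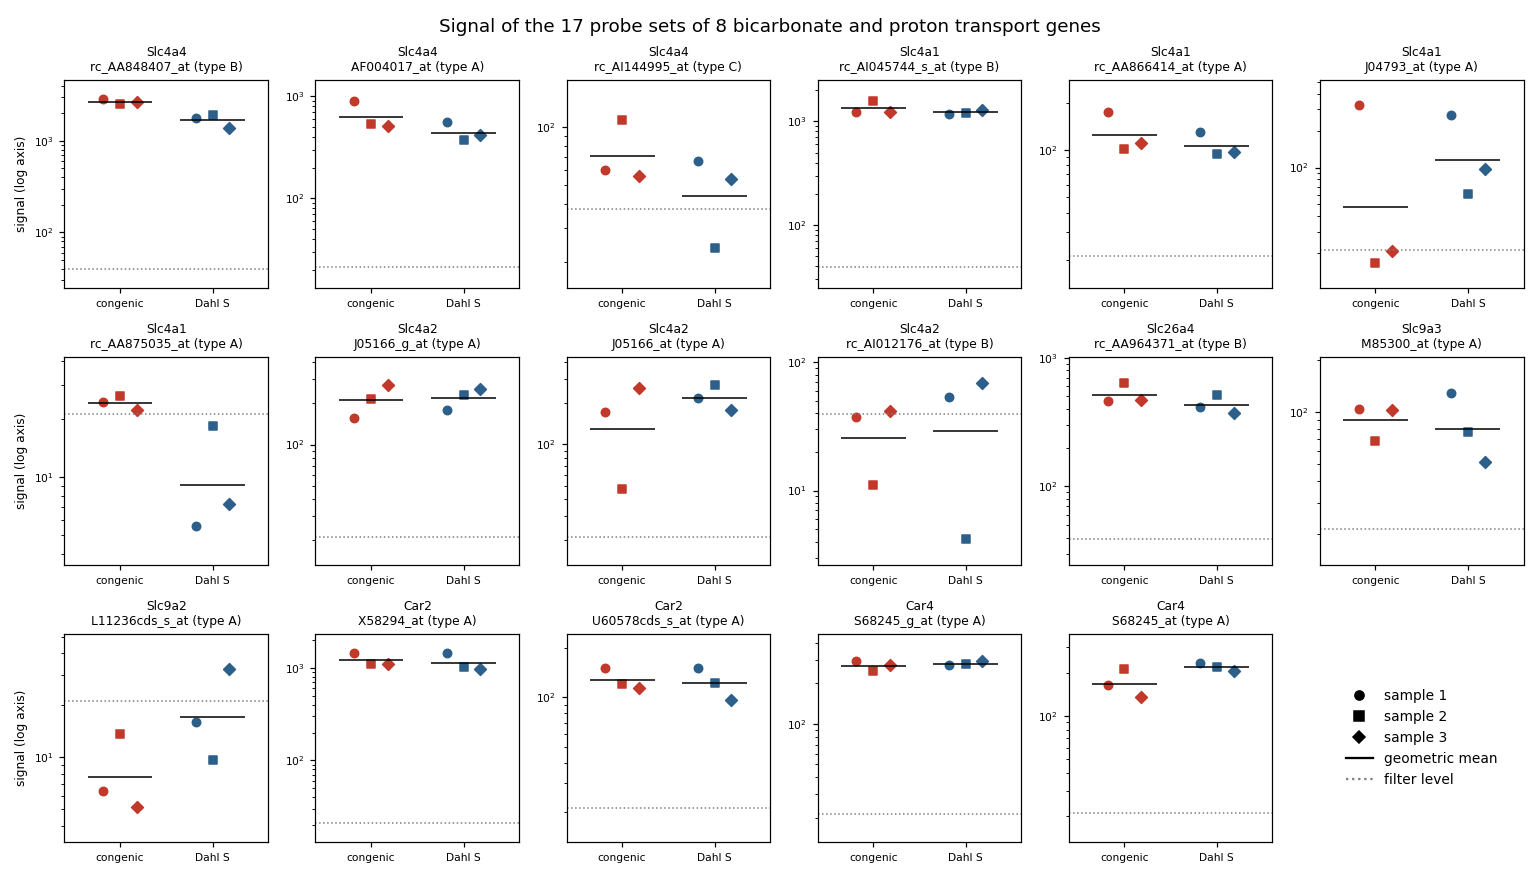
Signal of each of the 17 probe sets on a log axis, with the 3 congenic samples on the left and the 3 Dahl S samples on the right of each panel; marker shapes give the sample number, horizontal lines the geometric means and dotted lines the filter level of the array type. The congenic samples lie above the Dahl S samples for Slc4a4 rc_AA848407_at, and the Slc4a1 probe set J04793_at separates the samples numbered 1 from the others.

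Values of other tubule genes lay beside that of Slc4a4. Among all tested genes 48.9% were higher in the congenic strain. Of 16 tested proximal tubule markers 13 were higher, with a median log2 difference of 0.12. Of the 16 markers 3 did not overlap between strains, all higher, where 3.82% of all tested genes were higher without overlap. The summed signal of the 16 was 69552 to 83633 in the congenic and 68366 to 73500 in the Dahl S samples. Relative to the median of these markers in each sample, the Slc4a4 difference was 0.60. Of 8 stroma markers 7 were lower in the congenic strain, 3 without overlap (median -0.37, summed signal 2660 to 3104 in the congenic and 3715 to 4216 in the Dahl S samples), and of 7 leukocyte markers 5 were lower, also 3 without overlap (median -0.38), where 3.8% of all tested genes were lower without overlap. The leukocyte markers summed to 3478 to 3726 in the congenic and 3748 to 4804 in the Dahl S samples. The part of stroma and leukocyte RNA in the Slc4a4 difference was not tested.

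Slc4a1 encodes the anion exchanger AE1, which exchanges chloride for bicarbonate in red cells and, as a shorter form, in the basolateral membrane of acid-secreting intercalated cells. Its brightest probe set, rc_AI045744_s_at on type B, read 1238, 1557 and 1232 in congenic samples, against 1184, 1213 and 1282 in Dahl S samples. The strains overlapped, and the log2 difference was 0.12 (SE 0.16). It was 0.15 without both samples numbered 1, and 0.01 to 0.18 leaving out each sample in turn. The suffix _s_at marks, on this kind of array, probes that can match more than 1 transcript. A second probe set, rc_AA866414_at on type A, read 173.2, 101.7 and 111.3 in congenic samples and 130.0, 94.8 and 97.2 in Dahl S samples (0.24, SE 0.28; 0.15 without both samples numbered 1), again with overlap.

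The other Slc4a1 probe sets behaved unlike these. J04793_at on type A read 322.7, 16.6 and 20.7 in congenic samples, against 267.0, 60.9 and 96.5 in Dahl S samples. Sample 1 was the highest in each strain, by 4.12 log2 units over the mean of samples 2 and 3 in the congenic strain and by 1.80 in Dahl S. Congenic samples 2 and 3 were below the filter level of type A, 21.2, so the size of the strain difference is uncertain (-1.27, SE 1.08). It was 0.27 between the samples numbered 1 and -2.05 without them. The fourth, rc_AA875035_at, was too dim to be tested. It read 24.3, 26.1 and 22.2 in congenic samples and 5.6, 18.4 and 7.2 in Dahl S samples, and all 3 Dahl S values were below 21.2. The strains did not overlap there, but with 1 strain below the filter level the difference of 1.42 (SE 0.53) has no certain size. The 4 probe sets of Slc4a1 thus ranged from -1.27 to 1.42 in log2 difference, and no single direction held for the gene.

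Red cells carry Slc4a1 protein, so red cell RNA is given beside it. In Dahl S sample 3, alpha-globin Hba-a1 read 36676, against 5917 to 11704 in the congenic samples and 7613 and 9871 in the other Dahl S samples. The 3 tested Slc4a1 probe sets read 1282, 97.2 and 96.5 in that sample. None of these 3 values was the highest of its probe set. Of the 16 red cell markers on the arrays, 10 were tested and all 10 were lower in the congenic strain. Among all tested genes 48.9% were higher. Of the 10 markers, 0 were without overlap, against 7.62% of all tested genes. The list's median deviation was 1.37 in Dahl S sample 3 and -0.31 and -0.14 in Dahl S samples 1 and 2. In the congenic samples it was 0.19, -0.17 and -0.64. Alas2, the heme synthesis enzyme of red cell precursors, read 145.1, 119.1 and 88.6 in congenic samples and 116.0, 97.3 and 326.1 in Dahl S samples. It was highest in Dahl S sample 3, like the globins Hba-a1, Hba-a3, Hbb, Hbb-b1 and Hbb-bs. The globin Hbe1 was highest in Dahl S sample 2. It read 43.5, 11.9 and 33.3 in congenic samples and 15.4, 47.0 and 27.5 in Dahl S samples, with 2 values below the filter level. The membrane skeleton genes Ank1 and Epb41 and the glycophorin Gypc were above the filter level in all 6 samples and not highest in Dahl S sample 3. Rhag and Gata1, also on the red cell list, were too dim to be tested. Rhag was highest in Dahl S sample 3. It read 18.7, 27.5 and 6.5 in congenic samples and 49, 6.3 and 53.7 in Dahl S samples, with 3 values below the filter level. Gata1 was highest in congenic sample 1, at 28.4, with 4 values below the filter level. Car1, the red cell carbonic anhydrase, and Klf1, Epb42 and Ahsp were below the filter level in all 6 samples. The part of red cell RNA in the Slc4a1 values was not tested.

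Slc4a2 encodes AE2, a chloride-bicarbonate exchanger found in the basolateral membranes of many epithelia. Its brightest probe set, J05166_g_at, read 157.4, 216.4 and 271.4 in congenic samples, against 178.5, 231.4 and 252.7 in Dahl S samples. The difference was -0.06 (SE 0.25), with the ranges overlapping. It changed sign without congenic sample 1 (0.15) and without Dahl S sample 3 (0.05), and was 0 without both samples numbered 1. J05166_at, named for the same transcript sequence, read 172.8, 47.5 and 258.9 in congenic samples and 218.3, 270.1 and 178.1 in Dahl S samples (-0.77, SE 0.56; -0.98 without both samples numbered 1). Congenic sample 2 was far below the rest on J05166_at but in the middle of its group on J05166_g_at. The third probe set, rc_AI012176_at, was dim and not tested. It read 37.6, 11.1 and 41.7 in congenic samples and 53.7, 4.2 and 68.8 in Dahl S samples, with 2 congenic samples and 1 Dahl S sample below the filter level of type B, 39.3.

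Slc26a4 encodes pendrin, the apical chloride-bicarbonate exchanger of bicarbonate-secreting intercalated cells, which takes part in chloride reabsorption in the distal nephron. Its 1 probe set, rc_AA964371_at, read 463.4, 632.1 and 469.8 in congenic samples, against 412.0, 515.2 and 369.3 in Dahl S samples. Dahl S sample 2 lay above 2 of the congenic samples, so the strains overlapped. By sample number, not taken as pairs, the log2 differences were 0.17, 0.30 and 0.35. The log2 difference was 0.27 (SE 0.21), 0.32 without both samples numbered 1, and 0.12 without congenic sample 2. Of the intercalated cell markers 4 were tested, and 2 were higher and 2 lower, with a median of 0. The water channel Aqp6 differed by 0.75 (SE 0.51), the receptor Insrr by 0.03 (SE 0.22), the proton pump subunit Atp6v1g3 by -0.04 (SE 0.20) and the ammonia channel Rhcg by -0.20 (SE 0.23).

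Slc9a3 encodes NHE3, the apical sodium-proton exchanger of the proximal tubule and thick ascending limb. M85300_at read 104.4, 68.4 and 103.0 in congenic samples, against 129.3, 77.0 and 51.4 in Dahl S samples. The Dahl S samples spanned a wider range than the congenic samples and enclosed them (0.17, SE 0.38). Without Dahl S sample 3 the difference was -0.14, and without both samples numbered 1 it was 0.42. By sample number, not taken as pairs, the differences were -0.31, -0.17 and 1.

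Slc9a2 encodes NHE2, a sodium-proton exchanger of the apical membrane in distal tubule and gut epithelia. L11236cds_s_at read 6.4, 13.6 and 5.2 in congenic samples and 16.1, 9.7 and 32.4 in Dahl S samples. Of these 6 values 5 were below the filter level of 21.2, and Dahl S sample 3 was the exception. The probe set was not tested and its difference of -1.16 (SE 0.66) has no certain size. Other acid-base genes on chromosome 9 were Slc4a3 and Slc9a4. Slc4a3, the anion exchanger AE3, read 66.8, 128.0 and 56.3 in congenic samples and 150.8, 103.8 and 92.0 in Dahl S samples (-0.53, SE 0.36). Its difference was -0.29 without congenic sample 3, -0.32 without Dahl S sample 1, -0.88 without congenic sample 2 and -0.20 without both samples numbered 1. Slc9a4, the sodium-proton exchanger NHE4, was below the filter and not tested.

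Car2 encodes the cytosolic carbonic anhydrase of proximal tubule and intercalated cells, and of red cells. X58294_at read 1452, 1087 and 1110 in congenic samples, against 1428, 1030 and 970.5 in Dahl S samples. The strains overlapped almost fully (0.10, SE 0.19), and the sign turned without congenic sample 1 (-0.04) or Dahl S sample 3 (-0.01), and it was 0.14 without both samples numbered 1. U60578cds_s_at read 150.2, 120.4 and 113.4 in congenic samples and 151.6, 122.6 and 96.6 in Dahl S samples (0.06, SE 0.25; 0.10 without both samples numbered 1). On both probe sets sample 1 was the highest of each strain, by 0.40 and 0.36 log2 units over the mean of samples 2 and 3 in the congenic strain and by 0.51 and 0.48 in Dahl S. Dahl S sample 3, the sample with the most globin RNA, was the lowest of the 6 on both. The part of red cell RNA in the Car2 values was not tested.

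Car4 encodes the carbonic anhydrase tethered to the outer face of the proximal tubule membranes. S68245_g_at read 292.5, 248.7 and 272.9 in congenic samples, against 275.0, 278.2 and 291.8 in Dahl S samples. The values interleaved, and the difference was -0.06 (SE 0.16; -0.13 without both samples numbered 1). S68245_at, named for the same sequence, read 164.4, 213.3 and 135.0 in congenic samples and 232.7, 220.3 and 205.4 in Dahl S samples. There congenic samples 1 and 3 were below all Dahl S samples while congenic sample 2 was above Dahl S sample 3 (-0.38, SE 0.21; -0.33 without both samples numbered 1).

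**Figure D2:**
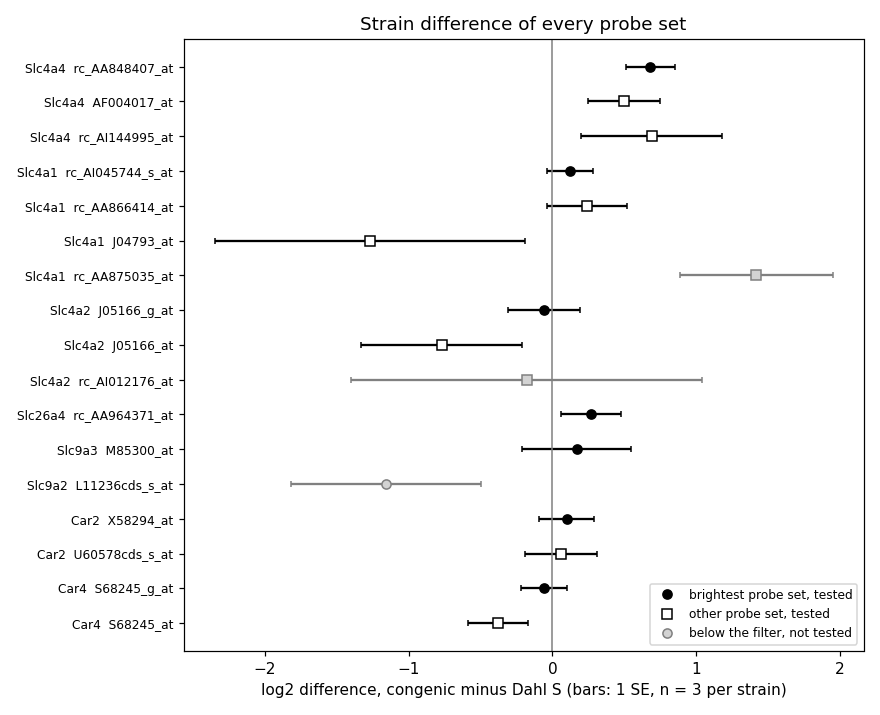
Log2 difference, congenic minus Dahl S, of each of the 17 probe sets, with bars of 1 SE (n = 3 samples per strain); filled circles are the brightest probe set of each gene, open squares the others, and grey symbols probe sets too dim to be tested. The 3 Slc4a4 probe sets lie between 0.50 and 0.69, the dim rc_AI144995_at with an SE of 0.49. Those of Slc4a1 spread from -1.27 to 1.42.

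Of the 17 probe sets, 14 passed the filter on low signals, and 7 of the 8 genes had at least 1 that did. Of these 7 genes, 5 had a positive difference on the brightest tested probe set (Slc4a4, Slc4a1, Slc26a4, Slc9a3 and Car2) and 2 a negative one (Slc4a2 and Car4), with a median of 0.12. Among all 8168 tested genes 48.9% were positive and the median was -0.006. By probe set, 9 of the 14 were positive, as were 49.5% of the 15721 tested. Values did not overlap between strains in 1 of the 14 (7.08% of all tested probe sets). It was Slc4a4 rc_AA848407_at, with the congenic samples higher (3.59%), and in 0 of the 14 were they lower (3.49%). limma called 0 of the 14 at an adjusted p of 0.05 in the fit over all tested probe sets, where it called 0% of them. At an unadjusted p under 0.05 there was 1, the same Slc4a4 probe set, against 2.49% (391) of all tested probe sets, with 1.17% on the congenic-higher side and 1.32% on the congenic-lower side. Because the genes were chosen on this contrast, nothing is read from these counts.

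The samples numbered 1 differed from those numbered 2 and 3 in several of the 14 tested probe sets. In 6 of them sample 1 was the highest in both strains: Slc4a4 AF004017_at, Slc4a1 rc_AA866414_at and J04793_at, Slc9a3 M85300_at and both Car2 probe sets. In 1, Slc4a2 J05166_g_at, it was the lowest in both. Over all tested probe sets the shares were 20% highest and 19.3% lowest. All 6 probe sets with the highest value in sample 1 are on array type A, as are 10 of the 14. The sources used here do not say what set these samples apart.

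**Figure D3:**
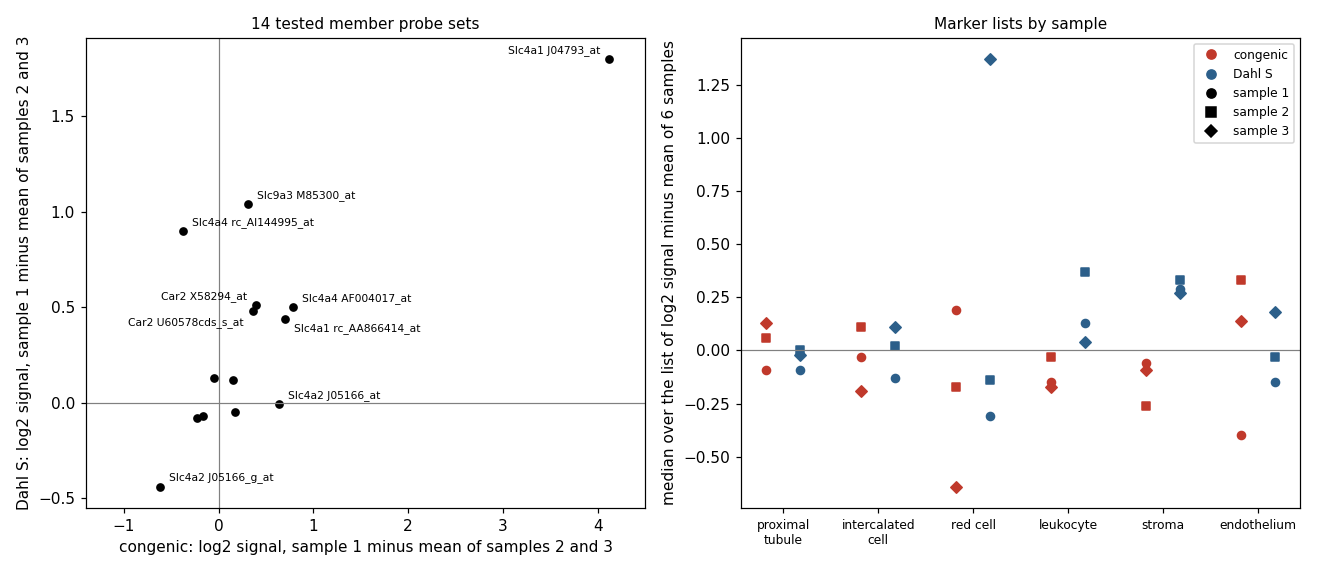
Left, log2 signal of sample 1 minus the mean of samples 2 and 3, in the congenic strain (x axis) and in Dahl S (y axis), for the 14 tested probe sets; right, the median deviation of each marker list from the mean of the 6 samples, by strain and sample number. Slc4a1 J04793_at is at 4.12 and 1.80 on the left, and Dahl S sample 3 is at 1.37 for red cell markers on the right.

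Other acid-base genes gave a wider view of the same pathway. Of 51 on the arrays 43 were tested, and in congenic kidneys 25 were higher and 18 lower, with a median log2 difference of 0.02. Among all tested genes 48.9% were higher. limma called 0 of the 43 at an adjusted p of 0.05, and 3 had an unadjusted p under 0.05, against 2.35% of all tested genes. Values did not overlap in 5 of the 43 (11.6%), 4 higher and 1 lower, where 7.62% of all tested genes did not overlap, 3.82% with the congenic samples higher and 3.8% lower.

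Proton pump genes encode the subunits of the vacuolar proton pump and the gastric-type pump. Of 19 tested, 13 were higher and 6 lower, with a median of 0.07. Atp6v1c2, a C subunit isoform of the pump, read 166.2, 171.0 and 202.2 in congenic samples, against 119.0, 106.4 and 128.5 in Dahl S samples. All congenic samples were above all Dahl S samples (0.61, SE 0.20, limma adjusted p = 0.9997), and a second, dimmer probe set that was not tested differed by 0.20. Atp6v1e1, the E1 subunit, was also without overlap, at 720.6, 845.4 and 800.4 in congenic samples and 621.9, 676.4 and 685.4 in Dahl S samples (0.25, SE 0.14). So was Atp6v1a, the catalytic A subunit, whose brightest probe set differed by 0.15 (SE 0.14), and it was named after its values were seen. The 4 tested Atp6v1a probe sets differed by 0.15, 0.18, 0.33 and 0.51. Atp6v1c1, the more widely expressed C subunit, differed by 0.25 (SE 0.19) on its brightest and by -0.02 on its second probe set. Leaving out each sample in turn gave 0.13 to 0.37 for the brightest.

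Other carbonic anhydrases were balanced, with 4 of 8 tested genes higher and a median of -0.01. Car5a, a mitochondrial carbonic anhydrase, read 91.4, 97.8 and 112.5 in congenic samples, against 80.7, 56.2 and 62.7 in Dahl S samples, without overlap (0.61, SE 0.26). Car11, a carbonic anhydrase-related protein, differed by -0.78 (SE 0.43) and Car7, a cytosolic isoform, by -0.33 (SE 0.27). The second Car11 probe set, too dim to be tested, differed by 0.31. Congenic sample 2 carried much of the Car11 value, which was -0.23 without it, and Car7 was -0.18 without Dahl S sample 1 and -0.57 without Dahl S sample 2.

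Of 5 tested genes of sodium-proton exchange and its regulators, 2 were higher and 3 lower (median -0.14). Nherf2, a scaffold that binds NHE3, read 273.0, 403.1 and 294.5 in congenic samples, against 489.5, 533.9 and 440.9 in Dahl S samples, without overlap (-0.61, SE 0.22). Its other 3 tested probe sets differed by 0.08, 0.07 and 0.01, so the lower value was seen on 1 of 4. Nherf1, the brush border scaffold of the same family, differed by 0.19 (SE 0.18), and Slc9a8, an intracellular and apical exchanger, by -0.14 (SE 0.20). Leaving out each sample in turn, Nherf1 ranged from 0.06 to 0.32 and Slc9a8 from -0.25 to 0.04.

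Of 7 tested bicarbonate and anion exchangers, 5 were higher and 2 lower (median 0.02). The smallest p-values belonged to Slc4a3, described above, to Slc26a6, an apical anion exchanger of the proximal tubule (-0.35, SE 0.28), and to Slc26a2, a sulfate transporter (0.46, SE 0.45). Slc26a6 was -0.15 without congenic sample 3 and -0.54 without congenic sample 2, and Slc26a2 was 0.08 without congenic sample 2, 0.24 without Dahl S sample 2 and 0.77 without Dahl S sample 3. Genes of ammonia transport and acid sensing had 1 of 4 higher (median -0.20). They were Glud1, the glutamate dehydrogenase of ammonia production (0.18, SE 0.13), Rhcg, the acid-sensing kinase Ptk2b (-0.31, SE 0.67) and the proton-sensing receptor Gpr4. Ptk2b had 2 samples below the filter level. Leaving out each sample in turn gave 0.13 to 0.28 for Glud1, -0.38 to -0.06 for Rhcg and -0.77 to 0.24 for Ptk2b.

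**Figure D4:**
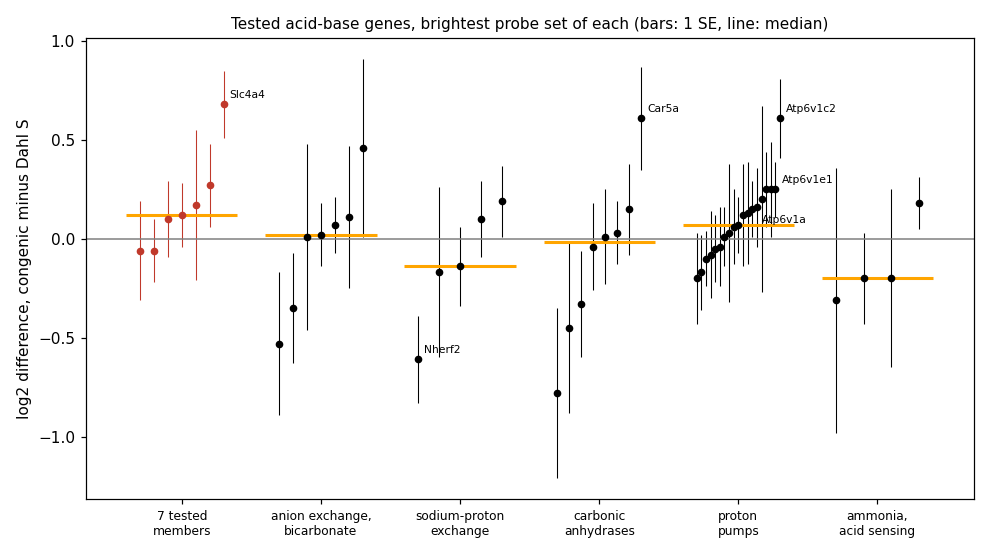
Log2 difference, congenic minus Dahl S, of the brightest probe set of each tested gene, by list, with bars of 1 SE and an orange line at each list's median; genes whose strains do not overlap are named. Slc4a4 at 0.68 is at the top of the 7 tested members, and the list medians lie between -0.20 and 0.12.

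The genes whose signal followed each transporter most closely over the 6 samples were listed by Pearson correlation of log2 signals, each gene by its brightest probe set. All the points share the same 6 numbered samples, and with 6 points high values arise often, so the correlations are a description. For Slc4a4 they were Gramd4 (r = 0.975), Urgcp (0.972) and Sap30l (0.967), and 43 tested genes were over 0.9. Slc26a4 was followed by Palld (0.978), Mchr1 (0.977) and Vegfa (0.976), also among 43. Slc4a1 was followed by Nfyc (0.988), Flot1 (0.981) and Atf4 (0.978), among 84, and Car4 by Rcbtb2 (0.989), Nrep (0.980) and Hrg (0.976), among 75. Slc4a2 was followed by Maged1 (0.996), Dynlt3 (0.993) and Fau (0.993), among 270 genes over 0.9. Car2 was followed by Cdk11b (0.992), Caprin1 (0.990) and Mthfs (0.986), among 158, and Slc9a3 by Gng10 (0.994), Eif3e (0.994) and Clk3 (0.986), among 76.

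Among themselves, the 7 tested members did not move as 1 block over the 6 samples. Car2 and Slc9a3 correlated at r = 0.84, and Car2 and Slc4a2 at -0.88. Slc4a4 correlated at 0.64 with Slc26a4 and at -0.33 with Car4, both on the brightest probe set of each gene.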

How the data were processed

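Per the labels, total kidney RNA of 3 congenic and 3 Dahl S samples was hybridised to 3 array types. Groups and sample numbers came from the sample titles. The authors deposited linear intensities, with 1 value for each probe set. The values show that they were scaled: trimming 2% at each end left a mean of 150.1 to 150.2 on every array. The sources used here do not name the software. No further scaling was applied.

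On each array type, 59 control probe sets were left out, the 10th percentile served as a floor (3.1 on type A, 6.8 on B, 4.9 on C), and signals were put on the log2 scale. Probe sets with a mean log2 signal under the 40th percentile of their type (21.2, 39.3 and 37.7 signal units) were not tested, which left 15721 of 26202. Median signals per array were 34.8 to 78.5, and the number of arrays limits the precision. In the platform annotation 18178 probe sets had 1 gene symbol, 391 had several and 7633 had none. The test was limma (version 3.58.1, under R 4.3.3), with lmFit and a trended eBayes, fitted once per array type, with Benjamini-Hochberg adjustment over all tested probe sets. A probe set below the filter has the standard error of its own fit. A gene is represented by its brightest tested probe set.

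The genes and lists were chosen with earlier results of these data known. Named genes are all 8 members, the 3 genes with the smallest p of each other acid-base list, up to 4 markers per list with the highest mean signal, and the 3 genes most correlated with each member. Some other genes, Atp6v1a, Gpr4, Slc9a4, Hba-a3, Hbe1, Alas2 and the other non-globin red cell genes among them, were named after their values were seen. Thick limb, collecting duct and endothelial markers had medians of 0.14, 0 and 0.06. Red cell markers had a median of -0.43, with Dahl S sample 3 far above the other samples. Same-numbered samples were checked for pairing by the correlation of their deviations from the strain means, which was 0.45, 0.08 and 0.18 for numbers 1, 2 and 3. The numbers were not taken as pairs. Alternatives covered the floor, filter, normalization, eBayes settings, sample number as a block, samples left out and averaging the probe sets of a gene. Python 3.11.15 and matplotlib 3.10.9 drew the figures.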

Additional observations from a re-analysis of the deposited data

How the results depend on the processing

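With 3 samples per strain, small differences cannot be resolved: the median SE of a tested gene's log2 difference was 0.27. Under all 17 alternatives limma called 0 probe sets at an adjusted p of 0.05, with 259 to 819 at an unadjusted p under 0.05. The filter settings in that range tested other numbers of probe sets. With the sample number as a replicate block, 0 were called and 819 of 15721 had an unadjusted p under 0.05, against 391 (2.49%) without it. There 5 members stayed positive and the other acid-base median was 0.02, and of the 3 numbers, number 2 did not correlate best with itself. The number of positive members ranged from 4 to 6 and the acid-base median from -0.02 to 0.05, also leaving out each sample in turn. Slc4a4 was 0.53 to 0.78 and Slc26a4 0.12 to 0.40 in every setting run. Averaging a gene's tested probe sets moved Slc4a1 to -0.30, Slc4a2 to -0.41 and Car4 to -0.22, through the probe sets that disagree. Quantile normalization gave 0.56 for Slc4a4 and median scaling 0.78. Leaving out 1 sample gave -0.25 to 0.04 for Slc9a8, positive only without congenic sample 1. For Ptk2b it gave -0.77 to 0.24, positive without congenic sample 3 (0.14) or Dahl S sample 1 (0.24). The cause was not tested. Scaling Slc4a4 to the proximal tubule markers (0.60) was chosen after seeing the data.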
